A study of Caenorhabditis elegans with 2 samples.

Results

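Genes of the DREAM complex and synthetic multivulva (synMuv) genes were examined for peaks of LET-526 in whole worms. The 10 genes were chosen by name with their peaks in these files already known. The genes were lin-35, efl-1, dpl-1, lin-9, lin-37, lin-52, lin-53, lin-54, lin-56 and lin-15B, out of 19973 protein-coding genes. LET-526 is the ARID1-like subunit of the SWI/SNF (BAF) chromatin remodelling complex, which moves nucleosomes with the energy of ATP. Chromatin immunoprecipitation with sequencing (ChIP-seq) was done on whole young adult Caenorhabditis elegans of strain RW12306 at 60 hours, in 2 biological replicates of 1 group. Worms were synchronised by bleaching and L1 starvation. Both replicates carried allele st12306, a CRISPR insertion of TY1, EGFP and 3xFLAG tags into let-526, and an anti-GFP antibody pulled down the sonicated chromatin. The tag was in all samples, no untagged or input library was analysed here, and the files used hold peaks and not reads, so depth is unknown.

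DREAM is a repressor complex that joins an Rb-family pocket protein, an E2F and DP pair that binds DNA, and the MuvB proteins, of which LIN-54 also binds DNA. In worms it is known for holding down cell cycle and germline genes in somatic cells. The synMuv genes were found through the vulva: loss of a class A gene together with a class B gene gives extra vulval tissue, and the DREAM genes are class B. Loss of these genes lets the EGF gene lin-3 be expressed outside its normal place.

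Of the 10 genes, 5 had a peak in the optimal thresholded list, which the authors made from both replicates: lin-35, lin-9, lin-53, lin-54 and lin-56. A peak was counted when its summit lay from 1000 bp upstream of the gene's first base to its last base. The same window held an optimal peak in 4.87% of all protein-coding genes. Because the genes were chosen with their peaks known, this count is a description and was not tested. By role, the peaks lay at the pocket protein gene, at 3 of 5 MuvB genes and at the class A gene lin-56, and at neither the E2F gene nor the DP gene. All 5 peaks were also in the narrower window that ends 200 bp after the start, which held an optimal peak in 3.32% of all genes. In tissue from whole animals, strong binding in few cells and weak binding in many cannot be told apart.

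The sequences of 4 peaks are given to show the DNA they covered: 2 from the optimal list (lin-9 and lin-56), the strong lin-54 peak, which is in the conservative list and both replicates' lists but not the optimal one, and the efl-1 peak, which is in no thresholded list. They are the upstream peak of lin-9, chrIII:8904139-8904408 on the minus strand; the part of the strong lin-54 peak that lies between the starts of rpl-12 and lin-54, chrIV:13240652-13240734 on the plus strand; the part of the lin-56 peak outside annotated UTRs, chrII:10449678-10449873 on the plus strand; and the upstream peak of efl-1, chrV:16965698-16965967 on the minus strand. Each is given on its gene's own strand, from the RefSeq copy of the WBcel235 genome (ce11). Capitals mark matches on either strand to the following motifs. TTTGAA is the core of the CHR element that LIN-54 binds, and a variant of it searched beside it is TTCGAA. Letters like those that E2F proteins bind were searched as GCGCGAA and, with a single change, as GCGGGAA. The E-box was searched as CACGTG.
lin-9: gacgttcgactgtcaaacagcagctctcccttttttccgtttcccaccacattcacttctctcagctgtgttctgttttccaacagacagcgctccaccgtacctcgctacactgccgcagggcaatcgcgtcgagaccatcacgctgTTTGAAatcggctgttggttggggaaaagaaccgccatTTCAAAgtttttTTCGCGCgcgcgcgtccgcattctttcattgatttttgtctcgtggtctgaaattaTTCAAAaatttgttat
lin-54: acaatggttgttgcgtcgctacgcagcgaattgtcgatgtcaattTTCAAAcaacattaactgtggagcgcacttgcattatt
lin-56: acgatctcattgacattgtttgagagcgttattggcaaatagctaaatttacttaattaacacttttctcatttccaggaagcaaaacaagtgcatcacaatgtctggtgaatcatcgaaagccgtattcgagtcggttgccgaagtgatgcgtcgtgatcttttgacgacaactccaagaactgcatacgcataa
efl-1: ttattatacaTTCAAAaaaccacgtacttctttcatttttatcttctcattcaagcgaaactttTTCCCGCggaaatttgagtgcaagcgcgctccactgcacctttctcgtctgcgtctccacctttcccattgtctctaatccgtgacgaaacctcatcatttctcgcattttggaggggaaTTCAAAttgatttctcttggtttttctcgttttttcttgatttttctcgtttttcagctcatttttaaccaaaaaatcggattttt
The lin-9 sequence held TTTGAA at 3 places and GCGCGAA once, at −79 bp from the start, where negative positions are upstream. The efl-1 sequence held TTTGAA at 2 places and GCGGGAA once, at −228 bp. The lin-54 sequence held 1 TTTGAA, and the full 270 bases round that summit also held 1 GCGCGAA. The lin-56 sequence held none of the 5 motifs, and the full 270 bases round its summit held 1 TTTGAA. At the other genes, the 270 bases round the summit of the strongest peak held none of the 5 at lin-35, lin-37 and lin-52. They held 2 TTTGAA and 1 GCGGGAA at lin-53, 1 TTTGAA and 1 TTCGAA at dpl-1, and 1 TTCGAA at lin-15B.

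The same motifs were also counted in promoters, taken as 250 bases before to 50 bases after each start. These windows are not the peak sequences: the lin-54 TTTGAA at −347 bp and an efl-1 TTTGAA at −282 bp lie outside them. The shares below are therefore of promoters and give no background for the matches in peaks. TTTGAA was in 8 of the 10 genes' promoters and in 62.5% of all promoters. TTCGAA was in the lin-37 promoter and in 18.2% of all. GCGCGAA was in the lin-9 promoter and in 1.92% of all, and GCGGGAA was in the promoters of lin-53 and efl-1 and in 3.22% of all. CACGTG was in none of the 10 and in 5.82% of all. Both strands were searched, and the E2F-like motifs can overlap each other and the end base of CACGTG, while the CHR-like motifs can overlap none of the others. A match is a run of letters and not a measured site. The 270 bases round the summit had a GC content of 48.1% at lin-9, 42.6% at the strong lin-54 peak, 41.5% at lin-53, 39.6% at lin-56, 37.8% at efl-1 and 35.6% at lin-35, against a median of 43.7% over all optimal peaks.

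The peak at lin-35 lay in the space between 2 genes that are read in opposite directions. The gene encodes the only Rb-family pocket protein of the worm (WBGene00003020, I 5807709 to 5815637, plus strand). Its optimal peak (I 5807411 to 5807680) had a signal of 89.1 and rank 656 of 1200. Signal is the peak caller's own value per peak, as deposited by the authors, and does not compare between lists of different depth. In the ranked lists, which hold peaks before thresholding, the signal was 45.6 in replicate 1 and 46.9 in replicate 2. The summit lay at −163 bp from the lin-35 start in the optimal list, at −177 bp in replicate 1 and at −197 bp in replicate 2. The same optimal summit lay at −255 bp from vps-51, a gene of the GARP tethering complex that acts in vesicle traffic, whose start is 418 bp from that of lin-35. The peak passed in both lists made from the replicates together and in neither replicate's own thresholded list, with scores of 42 in replicate 1 and 573 in replicate 2. The score is the authors' rescaled reproducibility value of at most 1000, and 830, the lowest in the thresholded lists, stands for an irreproducible discovery rate (IDR) of 0.0100. A weaker ranked peak lay at the other end of the gene, 7915 bp after its start, in 3' UTR annotated to both lin-35 and hmg-3, with a signal of 48.7 that did not pass.

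Among the MuvB genes, lin-53 had the strongest peak of the optimal list. The gene encodes the RbAp48-like histone-binding protein, which is shared with other chromatin complexes (WBGene00003036, I 9618196 to 9619760, minus strand). Its peak (I 9619866 to 9620135) had a signal of 120.5 and rank 272 of 1200, with 65.2 in replicate 1 and 49.3 in replicate 2. It also passed in replicate 1 alone, where its score was 1000, and not in replicate 2 alone, where its score was 512. This promoter too faced another gene: the summit lay at −241 bp from lin-53 and −226 bp from nra-2, which encodes a nicalin-like endoplasmic reticulum protein, with 467 bp between the starts. In replicates 1 and 2 the summit lay at −233 and −236 bp from the lin-53 start.

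The peak at lin-9 was in the window of no other gene. The gene encodes a MuvB scaffold protein (WBGene00002998, III 8900237 to 8904131, minus strand), and the next gene upstream, unc-32, begins 1483 bp beyond it on the opposite strand. The peak had a signal of 104.3 and rank 418, with 58.8 in replicate 1 and 40.8 in replicate 2. Its summit lay at −143 bp from the start, and at −142 and −155 bp in replicates 1 and 2. It was in neither replicate's own thresholded list, with scores of 121 and 546. Inside the gene, ranked peaks 2123 and 2916 bp after the start had signals of 48.2 and 50.2 and did not pass.

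The lin-54 window held 2 different peaks, and the stronger was missing from the optimal list. LIN-54 is the MuvB protein that binds DNA through cysteine-rich repeats (WBGene00003037, IV 13241044 to 13243401, plus strand). The conservative list, from the comparison of replicate with replicate, gave a peak of signal 234.1 and rank 47 of 1077 (IV 13240611 to 13240734), 124 bp wide against 270 bp for the other members' conservative peaks. It was in both replicates' own thresholded lists, with 147.0 (rank 34 of 585) in replicate 1 and 87.7 (rank 80 of 421) in replicate 2, and a score of 1000 in each. No peak of the optimal ranked list overlapped it. The same held for 7 of the 1077 conservative peaks (0.650%), of which this was the strongest and the only one narrower than 270 bp. Its summit lay at −20 bp from rpl-12, a gene for a protein of the large ribosomal subunit, and at −373 bp from lin-54, and their starts are 393 bp apart on opposite strands. The summit was at −352 bp from lin-54 in replicate 1 and at −398 bp in replicate 2, so in replicate 2 it fell inside the 5' UTR of rpl-12.

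The lin-54 peak that the optimal list did hold was weak and lay inside the neighbour. It had a signal of 76.7, rank 957 of 1200 and an IDR of 0.00981 (IV 13240022 to 13240291), with 45.1 in replicate 1 and 29.8 in replicate 2. Its summit lay at −887 bp from lin-54, in a coding exon of rpl-12 494 bp after the start of that gene, and also at −743 bp from tag-115. It was not in the conservative list or in either replicate's thresholded list. Of the 10 genes, lin-54 alone had a peak that passed in both replicates separately.

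**Figure D1:**
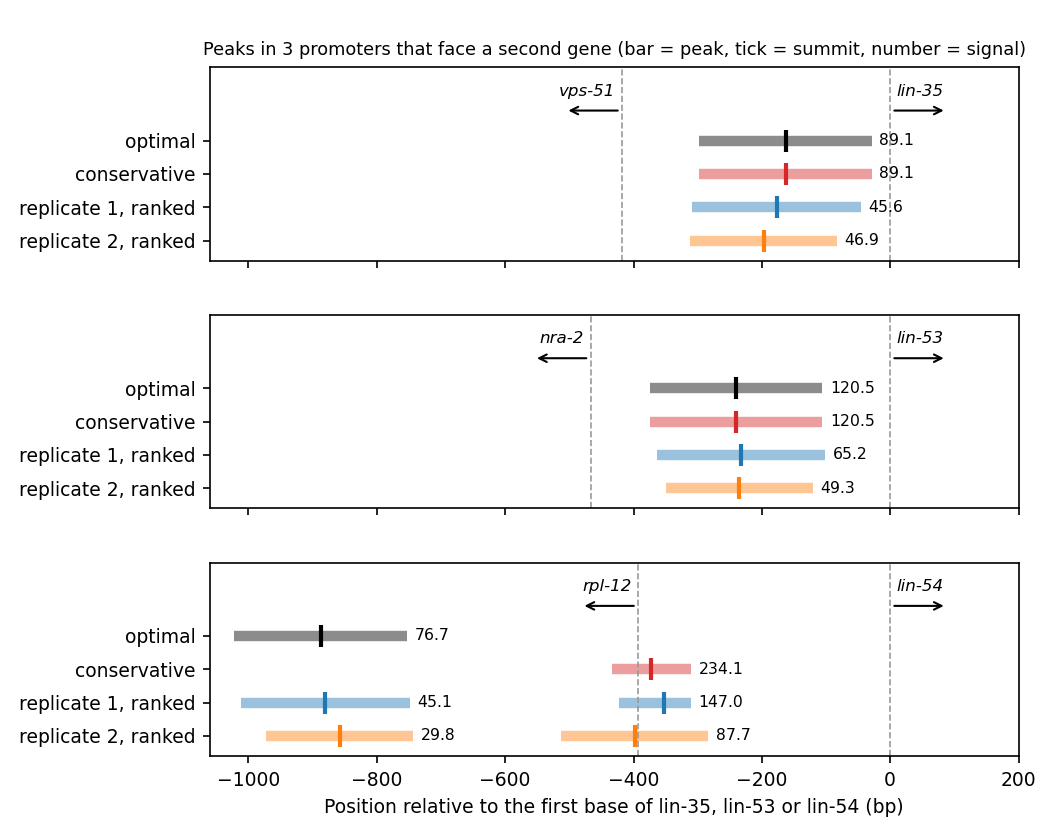
Peaks in 3 promoters that lie between genes read in opposite directions, with distance from the first base of lin-35, lin-53 or lin-54 in bp on the x axis and the peak list on the y axis. Bars are peaks, ticks are summits, numbers are deposited signals, dashed lines are gene starts, and only peaks that overlap an optimal or conservative peak are drawn. At lin-54 the peak of signal 234.1 is missing from the optimal list, which has the peak of 76.7 inside rpl-12 in its place.

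The class A gene lin-56 had a peak upstream of its start but inside the gene before it. Its product is a nuclear protein that acts with the class A protein LIN-15A (WBGene00003038, II 10450007 to 10452005, plus strand). The peak (II 10449678 to 10449947) had a signal of 102.5 and rank 446, with 56.1 in replicate 1 and 44.3 in replicate 2. It passed in replicate 1 alone, with a score of 992, and not in replicate 2 alone, with a score of 736. The summit lay at −194 bp from lin-56, in a coding exon of ZK673.2, a gene on the same strand whose annotated end runs past the lin-56 start (gap of −216 bp). A second ranked peak lay 307 bp after the lin-56 start, in its 5' UTR, with a signal of 61.7, 41.5 in replicate 1 and 25.5 in replicate 2, and did not pass (IDR 0.0464).

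The E2F and DP genes had no thresholded peak in any list. At efl-1, the worm E2F gene that works with lin-35 (WBGene00001161, V 16958590 to 16965675, minus strand), the strongest ranked peak had a signal of 64.8, rank 2255 of 81275 and an IDR of 0.0270. Replicate 1 gave 33.3 and replicate 2 gave 30.9, and the summit lay at −158 bp from the start with both together, −176 bp in replicate 1 and −171 bp in replicate 2. The same summit lay at −981 bp from fbxa-90, on the opposite strand, and so was in the window of that gene too. This was the nearest to the threshold of the 5 genes that missed it. At dpl-1, the DP partner (WBGene00001061, II 9169910 to 9172565, plus strand), the strongest ranked peak lay 1726 bp after the start, in a coding exon, with a signal of 50.9 and an IDR of 0.180. It was found in replicate 1 (35.2) and had no overlapping peak in the ranked list of replicate 2. All of dpl-1 lies within T23G7.2 on the other strand, and a peak 182 bp after the dpl-1 start had 44.3, with 31.7 in replicate 1 and 17.4 in replicate 2.

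The MuvB genes lin-37 and lin-52 and the class B gene lin-15B also had no thresholded peak in their windows in any list. The protein of lin-37 (WBGene00003022, III 7070890 to 7072552, minus strand) is a MuvB subunit needed for repression. Its strongest ranked peak, at −526 bp in a coding exon of ZK418.5, had a signal of 38.3 and no overlapping peak in either replicate's ranked list. The gene follows ZK418.5 on the same strand after 60 bp. The protein of lin-52 (WBGene00003035, III 9824083 to 9824750, minus strand) is a small MuvB subunit. Its strongest ranked peak, 585 bp after the start in a coding exon, had a signal of 45.9, with 26.4 in replicate 1 and 24.8 in replicate 2. Upstream, lin-52 follows ZK632.9 on the same strand after 126 bp. An optimal peak lay beyond that gene, at −1453 bp from lin-52 and −771 bp from ZK632.9 (III 9826068 to 9826337, signal 97.5, 35.5 in replicate 1 and 61.1 in replicate 2), outside the window used here.

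At lin-15B, which encodes a THAP-domain protein (WBGene00023497, X 15726123 to 15732025, plus strand), the strongest peak of the optimal ranked list had a signal of 26.4. It lay 2402 bp after the start in a coding exon, and neither replicate's ranked list had a peak that overlapped it. No peak of that list lay in the lin-15B promoter window. The conservative ranked list had one at −976 bp with a signal of 36.5 and a score of 75, and the ranked list of replicate 1 had one at −984 bp with 27.6, while that of replicate 2 had none there.

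**Figure D2:**
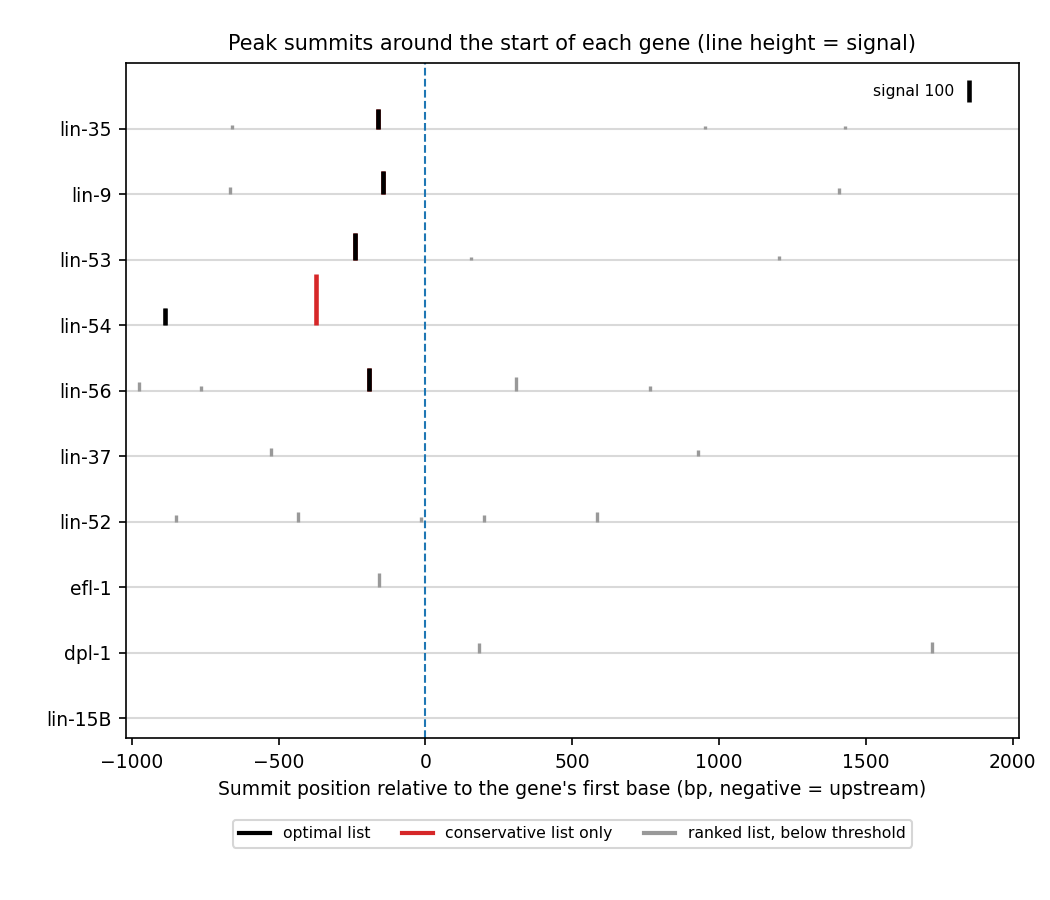
Summits around the start of each of the 10 genes, with position relative to the gene's first base in bp on the x axis and a row per gene, and line height giving the deposited signal (summits more than 2000 bp after the start are not drawn). Thresholded peaks lie between −887 and −143 bp, at lin-35, lin-9, lin-53, lin-54 and lin-56, and efl-1 has a weaker peak at −158 bp.

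The threshold is set on the score and not on the signal. Just inside were the lin-54 peak within rpl-12 (signal 76.7, score 833) and the lin-9 peak (104.3, score 915). Just outside were efl-1 (64.8, score 651) and the 5' UTR peak of lin-56 (61.7, score 553).

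Across the thresholded lists, the genes with a peak thinned out from the lists of both replicates to those of each alone. The conservative list also had a peak at 5 of the 10, the same genes as the optimal list, beside 4.52% of all protein-coding genes. At lin-54 the peaks differed, with the strong one in the conservative list and the weak one in the optimal list. Replicate 1 alone had 3 (lin-53, lin-54 and lin-56), beside 2.53% of all genes. Replicate 2 alone had 1 (lin-54), beside 1.88% of all genes. Of the 1200 optimal peaks as a whole, 273 (22.8%) overlapped a thresholded peak of both replicates and 520 (43.3%) of neither. The ratio of the signal in replicate 1 to that in replicate 2 was 0.973 at lin-35, 1.44 at lin-9, 1.32 at lin-53, 1.27 at lin-56 and 1.51 and 1.68 at the weak and the strong lin-54 peak. Over 1170 optimal peaks found in both ranked lists, its median was 1.26, with quartiles of 0.972 and 1.63.

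**Figure D3:**
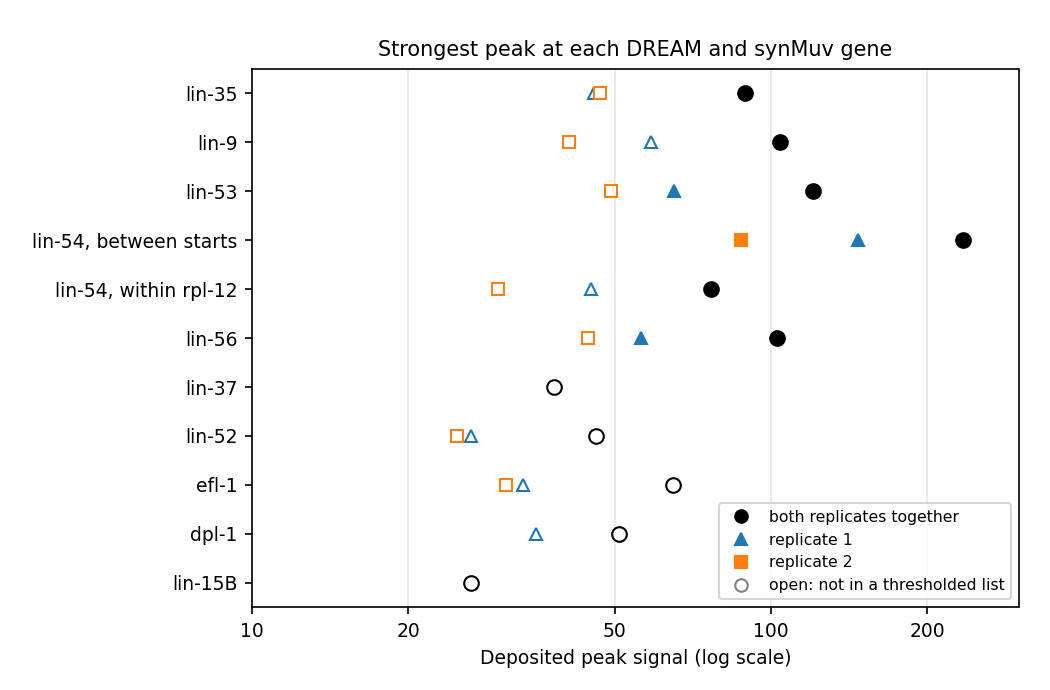
Deposited signal, on a log scale, of the strongest peak at each of the 10 genes, with both lin-54 peaks shown. Circles are both replicates together, triangles are replicate 1 and squares are replicate 2. Circles come from the optimal ranked list, except that the strong lin-54 peak comes from the conservative ranked list. In the conservative ranked list lin-15B had a stronger peak (39.6), which is not drawn. Filled symbols are in a thresholded list, and a missing symbol means that no peak of that replicate's ranked list overlapped. The lin-54 peak between the starts of rpl-12 and lin-54 is highest in each, at 234.1, 147.0 and 87.7.

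Peaks below the threshold say little by themselves, since 84.3% of all protein-coding genes had a peak of the optimal ranked list in the same window. All 10 members had one. The median signal of the strongest such peak was 70.7 over the 10 members and 40.6 over the 16828 genes. Because the members were chosen with their peaks known, this difference and the placements below are a description and were not tested. The strongest peak of lin-53 was above that of 98.4% of these genes, of lin-9 97.7%, of lin-56 97.5%, of lin-35 96.3% and of lin-54 94.5%. It was above that of 90.1% of them at efl-1, 64.4% at lin-52, 43.2% at lin-37 and 12.6% at lin-15B, and dpl-1 stood between efl-1 and lin-52. With the conservative ranked list, lin-54 stood above 99.7% of genes and lin-15B, with a peak of 39.6 in its body, above 46.7%.

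**Figure D4:**
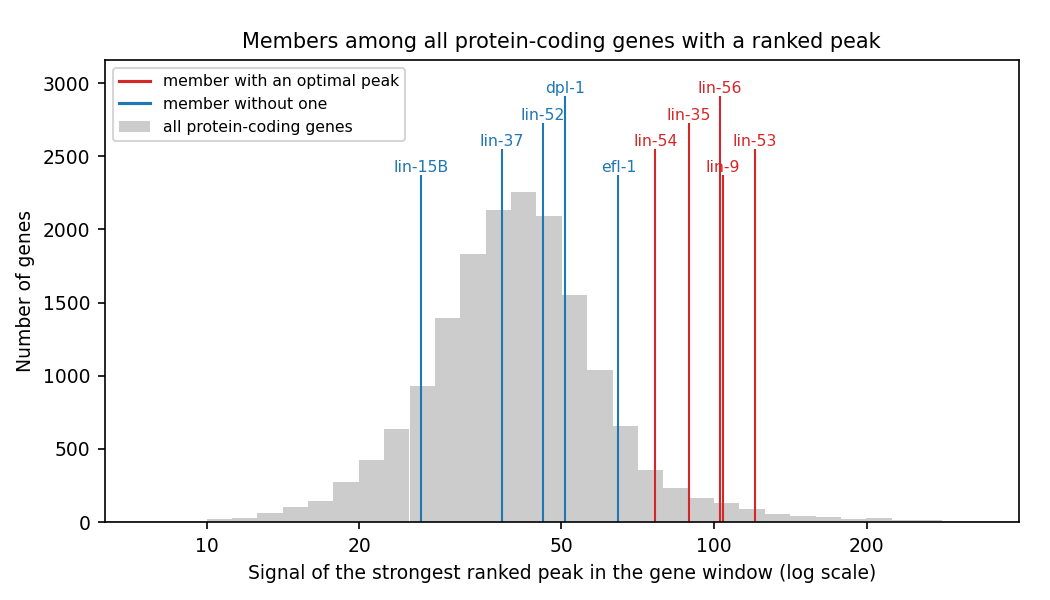
Signal of the strongest ranked peak in the gene window, on a log scale, for the 10 members (lines) and all protein-coding genes with such a peak (grey bars, number of genes). The 5 members with an optimal peak lie between 76.7 and 120.5, in the upper tail, and the other 5 between 26.4 and 64.8. The members were chosen with their peaks known.

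Each of 3 other gene lists of the same biology had 1 gene with an optimal peak, beside 4.87% of all protein-coding genes, and with 1 gene a list nothing is read from these counts. Of 17 other synMuv genes, 1 had an optimal peak: epc-1, a class C gene for an Enhancer of Polycomb protein of a histone acetyltransferase complex (WBGene00007030). Its peak (III 12608278 to 12608547) lay 173 bp after the start in the 5' UTR, with a signal of 104.6, 68.3 in replicate 1 and 41.1 in replicate 2, and a second peak at −282 bp (83.2) was in the conservative list only. The other 16 included lin-13, lin-36, hpl-2, met-2, let-418, lin-8 and lin-15A. Of 11 genes of the EGF and Ras pathway that makes the vulva, 1 had an optimal peak: mpk-1, which encodes the ERK kinase, in an intron 4250 bp after the start (84.9, with 44.8 in replicate 1 and 37.3 in replicate 2). There was none at lin-3, let-23 or let-60. In the conservative list sos-1, a Ras exchange factor gene, also had an intronic peak (81.2). Of 10 cell cycle regulators linked to Rb and E2F, 1 had an optimal peak: cye-1, which encodes cyclin E. The peak lay in an intron 1015 bp after the start that also holds an exon of another annotated gene (78.0, with 51.7 in replicate 1 and 28.9 in replicate 2).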

How the data were processed

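Peaks of LET-526 ChIP-seq were deposited by the authors on the ce11 assembly, per the labels, for each of 2 replicates and for both together. The peak signal was deposited by the authors and is the caller's own value. So was a score of at most 1000, which follows the global IDR that the authors give as −log10 in the ranked lists. The aligner and peak caller: not given in the sources used here. Columns without a matching sample or pool numbered 0. Each pooled ranked list was paired with the thresholded list whose peaks it holds in full. Genes came from Ensembl release 115 (WBcel235), and all peaks lay within the lengths of the RefSeq copy of that genome. Depth is unknown, so no interval was computed. The members, lists and motifs were chosen with earlier results of these data known. Named genes were the 10 members, genes of the other lists with an optimal peak, and genes sharing a member's peak. The upstream neighbours, sos-1, hmg-3 and examples without a peak were named after their values were seen. A replicate value is that of the overlapping ranked peak with the nearest summit. No test was made. The assignment of summits to windows was checked on planted peaks. Python 3.11.15, numpy 2.4.6, pandas 2.3.3 and matplotlib 3.10.9 were used.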

Additional observations from a re-analysis of the deposited data

How the results depend on the processing

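The 5 members with an optimal peak were also 5 with the conservative list (4.52% of all genes), though at lin-54 the lists held different peaks. They were also 5 with the window ending 200 bp after the start (3.32%) and with any base of the peak in the window (5.30%). There were 4 with 500 bp upstream (without lin-54; 4.17% of all genes) and 6 with 2000 bp upstream (with lin-52; 6.08%). There were 3 with optimal peaks above the median signal (lin-9, lin-53 and lin-56; 2.78% of all genes) and 3 with the nearest start only (lin-9, lin-35 and lin-56; 3.41%), a setting chosen after seeing the data. Without replicate 1 or without replicate 2, that is with the other replicate's own list, members numbered 1 to 3, all protein-coding genes 375 to 505 (972 with both), and the other 3 lists 0 each. The other synMuv genes had 1 in the remaining settings. The vulval genes had 2 in the conservative list and 0 in the promoter window or above the median signal, and the cell cycle genes had 0 in each of these 3. All genes above the median signal numbered 556. No paired analysis was possible because there was 1 group. With no control library and no read counts in the data used here, weak peaks could not be set against a background.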

Other observations

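Of the members' peaks searched for motifs, with both lin-54 peaks among them, only the weak lin-54 peak inside rpl-12 held CACGTG. The strong lin-54 peak did not hold it. This motif was in 159 of the 1200 optimal peaks (13.3%, 270 bases each), beside 5.82% of all promoters (250 bases before to 50 after the start). TTTGAA, letters of the element that LIN-54 binds, was in 40.7% of the optimal peaks and 62.5% of promoters. Its variant TTCGAA was in 16.1% of the peaks and 18.2% of promoters. GCGCGAA was in 3.92% of the peaks and 1.92% of promoters, and GCGGGAA in 5.58% and 3.22%. The windows differ in length, and the differences were not tested.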
